A study of Drosophila simulans with 22 samples.

Results

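The segment polarity genes were followed over the embryogenesis of Drosophila simulans in RAMPAGE data, in which only cDNAs that reach the 5′ end of their transcript are sequenced, so that each read marks a transcription start. The genes were taken by FlyBase number. Of the whole set, 10 D. melanogaster numbers were looked up in the deposited table of gene levels, which labels its 8460 genes with such numbers, and 9 were found. These were hh (FBgn0004644), ptc (FBgn0003892), smo (FBgn0003444), ci (FBgn0004859), en (FBgn0000577), inv (FBgn0001269), gsb (FBgn0001148), gsb-n (FBgn0001147) and nkd (FBgn0002945), and the number listed for wg was not analysed here. No measured value entered this rule.

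The series holds whole embryos of the reference genome strain, untreated and of no mutant genotype named in the labels, collected in population cages over 1 h and aged, with 1 sample for each of 22 hours from 0-1 h to 21-22 h after egg laying. There were no replicates. The test of a smooth curve over the hours measures change against the scatter of samples around that curve. The tests between windows of hours measure it against the spread of hours within windows, which holds real change as well as error. Neighbouring hours are alike and are not replicates of a condition, so the p-values are approximate. Levels are in RPM, the reads of a gene scaled to a fixed total per sample, and since RAMPAGE counts 5′ ends, they do not depend on transcript length. The read counts recovered from the RPM gave depths of 325359 reads (12-13 h) to 17332320 reads (9-10 h), with a median of 2879693, and 1 read was worth 0.0577 to 3.07 RPM. In whole embryos, fewer expressing cells and less RNA per cell cannot be told apart. No marker check of the tissue was made, since the table gives numbers without names.

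Segment polarity genes divide each segment of the fly embryo into an anterior and a posterior part and keep that boundary. In D. melanogaster, from which the roles given here are known, cells of the posterior part make the transcription factor Engrailed and secrete the ligand Hedgehog, and their neighbours secrete Wingless, a Wnt ligand. Hedgehog binds its receptor Patched, which releases the membrane protein Smoothened from inhibition, and Smoothened signals to the transcription factor Cubitus interruptus, among whose targets is patched itself.

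All 9 genes, among them ci with 3 reads in its highest sample, had their highest level between 3-4 h and 9-10 h. Of all genes reaching 2 RPM, which ci did not, 23.9% were highest in that span. The span runs from the earliest to the latest highest hour of the members themselves, so this share describes it and supports nothing. The highest hour was 3-4 h for smo and nkd, 5-6 h for hh, gsb and ci, 6-7 h for en and gsb-n, 7-8 h for ptc and 9-10 h for inv. Scaling by TMM or DESeq2 size factors, which correct for a few genes taking a large share of the reads, moved the highest hour of ptc to 4-5 h, and TMM moved that of inv to 6-7 h. The highest levels differed widely, from 1.89 RPM for ci to 1259 RPM for ptc. Of the 9 genes, 8 reached 2 RPM in some hour and entered the tests, and ci did not. At 12-13 h 1 read is worth 3.07 RPM, so the filter of 2 RPM also admits a gene through 1 read there. How many of all genes entered in this way was not counted.

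**Figure D1:**
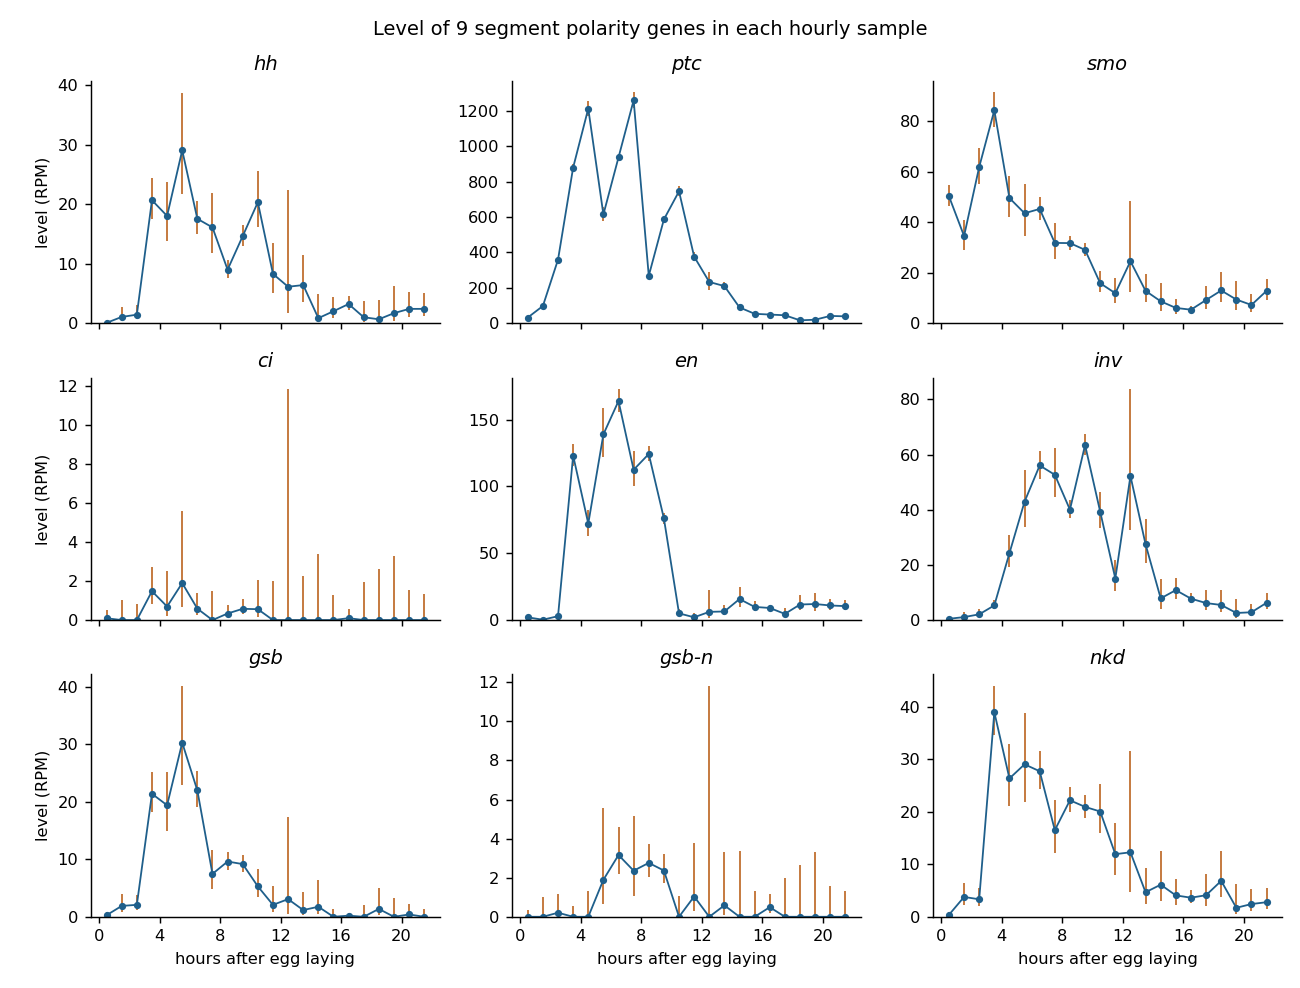
Level in RPM (y axis, a separate linear scale for each gene) of the 9 segment polarity genes in the 22 hourly samples (x axis, middle of the collection hour). Bars are 95% Wilson intervals for counting error only, wide at 12-13 h, where 1 read is worth 3.07 RPM. smo starts at 50.3 RPM and ptc at 32.8 RPM, the others start at 2.05 RPM or less, and all are highest between 3-4 h and 9-10 h.

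The ligand gene hh was near its floor before 3 h, with 0.093, 1.08 and 1.46 RPM in the first 3 hours. At 3-4 h it stood at 20.7 RPM, followed by 18.0, 29.0, 17.6, 16.1, 9.02 and 14.7 RPM in the hours up to 9-10 h. It had 20.3 RPM at 10-11 h, then 8.30, 6.15 and 6.43 RPM up to 13-14 h, and between 0.685 and 3.25 RPM in each later hour. Its course was thus a step up between neighbouring samples, a plateau of 8 hours and a low tail in which no sample reached the lowest of the plateau. Of its summed level, 79.3% fell in the 8 hours from 3 h to 11 h.

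The receptor gene ptc was the most strongly measured of the 9, with 43188 reads over the series, and it was present from the start. In the first 5 hours it had 32.8, 98.0, 359, 879 and 1212 RPM. The following hours went up and down, with 614, 937, 1259, 268, 586 and 745 RPM from 5-6 h to 10-11 h. The 268 RPM at 8-9 h came from 3990 reads, so that its Wilson interval of 260 to 277 RPM lay far from the 1216 to 1303 RPM of 7-8 h and the 575 to 598 RPM of 9-10 h. Against a smooth curve the 8-9 h value of ptc was lower by 1.78 on the log2 scale, and 0.715% of all genes had a more negative deviation in that sample. Beside ptc, hh (9.02 RPM, against 16.1 RPM at 7-8 h) and inv (40.0 RPM, with a Wilson interval of 36.9 to 43.4, against 52.7 RPM with 44.5 to 62.4) were lower at 8-9 h than at 7-8 h. en, gsb, gsb-n and nkd had higher values at 8-9 h than at 7-8 h, but in each of them the Wilson intervals of these hours overlapped. smo had 31.8 RPM in both. From 11-12 h on ptc stood at 377, 234, 210, 90.0 and 54.0 RPM, and between 17.1 and 49.7 RPM in the last 6 hours.

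The gene smo, which encodes the signal transducer that Patched holds inactive, had another course. It had 50.3 RPM at 0-1 h and 34.6 RPM at 1-2 h, or 59.7% of its highest level in the first sample, whereas the other 6 members that reached 10 RPM had between 0.32% (hh) and 2.61% (ptc) of their highest level there. Among all genes reaching 10 RPM, 28.6% were under 5% of their highest level at 0-1 h, and the median gene was at 50.6%, so that smo lay near the median gene in this respect. The level of smo was 61.9 RPM at 2-3 h and 84.3 RPM at 3-4 h, then 49.6, 43.6, 45.3, 31.8, 31.8 and 29.1 RPM up to 9-10 h and 5.41 to 24.6 RPM in every later hour. As background from D. melanogaster, most RNA of the first hour is laid down in the egg by the mother, and maternal and zygotic RNA were not separated in these data.

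The transcription factor gene ci was close to the limit of detection. It had 39 reads over the series, with no read in 13 of the 22 samples, and more than 3 reads in only 4 of them: 10 reads at 3-4 h (1.48 RPM), 5 at 6-7 h (0.585 RPM), 5 at 8-9 h (0.336 RPM) and 10 at 9-10 h (0.577 RPM). Its highest value, 1.89 RPM at 5-6 h, was 3 reads. All but 2 of its 39 reads lay between 3 h and 11 h, the same hours in which hh and ptc were high. From 11-12 h to 15-16 h 1 read was worth 0.339 to 3.07 RPM, so levels like those above could leave no read there. No TSC could be linked to ci, and no change of ci was tested.

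The homeobox genes en and inv lie next to each other in D. melanogaster and are expressed together in posterior compartments. The level of en was 2.05, 0.270 and 2.92 RPM in the first 3 hours, and then 123 RPM at 3-4 h. It stayed at 72.1, 139, 164, 112, 124 and 76.0 RPM from 4-5 h to 9-10 h. At 10-11 h it was 5.01 RPM, and from then on it kept between 2.08 and 15.7 RPM. On the log2(RPM + 1) scale, no other member rose or fell as far as en between neighbouring hours.

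For inv the rise was more gradual, with 0.465, 1.08, 2.08 and 5.32 RPM up to 3-4 h, and 24.3, 42.9, 56.1, 52.7, 40.0 and 63.5 RPM from 4-5 h to 9-10 h. It remained at 39.3, 15.1, 52.2 and 27.5 RPM from 10-11 h to 13-14 h, hours in which en was at 6.43 RPM or less. The 52.2 RPM at 12-13 h rest on 17 reads in the shallowest sample. From 14-15 h on inv lay between 2.57 and 10.9 RPM.

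Set side by side, the reads of en made up 95.9% of the reads of both genes at 3-4 h (Wilson interval 94.3 to 97.0%), 54.5% at 9-10 h (52.5 to 56.5%) and 11.3% at 10-11 h (7.28 to 17.2%). Pooled over hours, the share of en was 71.1% from 3 h to 10 h (6111 of en and 2482 of inv), 13.0% from 10 h to 14 h (35 and 234) and 58.4% from 14 h to 22 h (236 and 168). The ratio of en to inv did not pass the test between the late and the middle window. It averaged 0.83 ± 0.84 on the log2(RPM + 1) scale in 16-22 h and 1.28 ± 0.54 in 4-10 h (SD, n = 6 each), a difference of -0.45 (two-sided exact permutation test, p = 0.297, adjusted p = 0.297 over 3 pairs). The low share of en from 10 h to 14 h lies between these windows and was noticed after the values were seen.

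**Figure D2:**
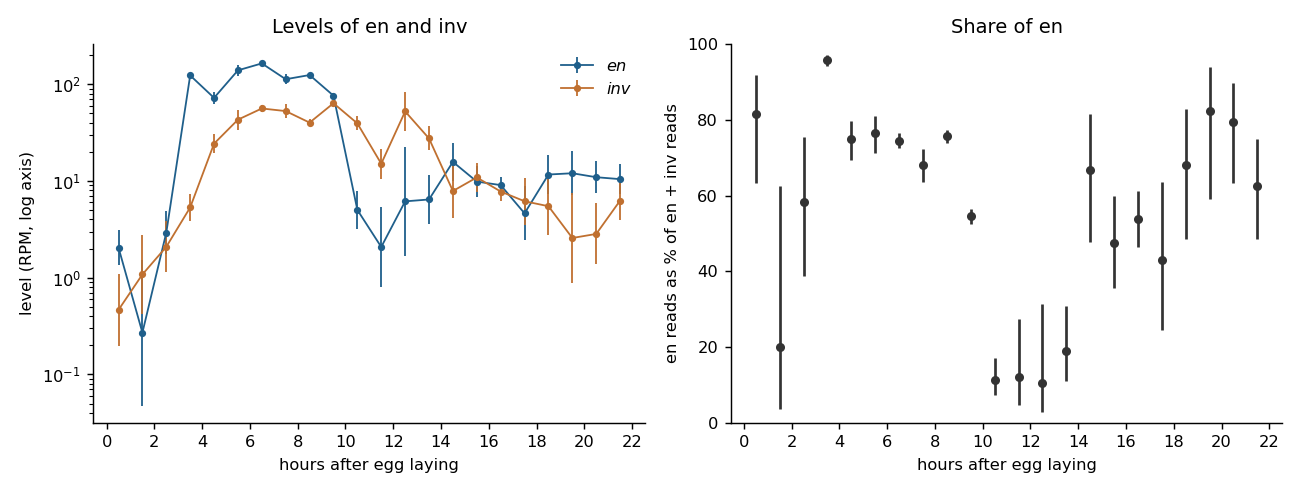
Left, level of en and inv in RPM on a log axis by hour after egg laying, with 95% Wilson intervals. Right, reads of en as a percentage of the reads of en and inv in each sample, with 95% Wilson intervals: 54.5% at 9-10 h, 11.3% at 10-11 h and 66.7% at 14-15 h.

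The paired-domain transcription factor genes gsb and gsb-n are neighbours as well. gsb had 0.279, 1.89 and 2.08 RPM in the first 3 hours, 21.4, 19.4, 30.3 and 22.0 RPM from 3-4 h to 6-7 h, and 7.47, 9.62, 9.17 and 5.29 RPM from 7-8 h to 10-11 h. It was at or under 3.07 RPM in every later hour, and at 0 reads in 4 of them. Between 3 h and 10 h lay 85.9% of its summed level. gsb-n was weak, with 127 reads in all and a highest level of 3.16 RPM at 6-7 h, and it appeared later. No read of gsb-n was found at 3-4 h or 4-5 h, where 3 reads would have been 0.443 and 1.04 RPM, while gsb had 145 and 56 reads there. At 5-6 h to 9-10 h gsb-n had 1.89, 3.16, 2.36, 2.76 and 2.37 RPM, and it had no read in 13 of the 22 samples.

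The log2 ratio of gsb to gsb-n averaged 0.24 ± 0.56 in 16-22 h and 2.45 ± 1.22 in 4-10 h (SD, n = 6 each). The difference of -2.21 passed the exact permutation test (two-sided p = 0.00217, adjusted p = 0.00325), whose smallest possible p is 0.00217. In 16-22 h, gsb-n was at 0 reads in 5 samples and gsb in 3, so that the late ratio is set largely by the pseudocount of 1 RPM. For ptc and smo, which were well measured in both windows, the log2 ratio averaged 1.75 ± 0.95 in 16-22 h and 4.22 ± 0.75 in 4-10 h (SD, n = 6 each), with a difference of -2.46 (exact permutation test, two-sided p = 0.00217, adjusted p = 0.00325). On average ptc fell further than smo between these windows. The permutation treats the hours of a window as exchangeable, although neighbouring hours are alike. Its p-values can therefore be too small, for every pair tested.

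The gene nkd encodes a cytoplasmic antagonist of Wnt signalling that is itself induced by Wingless. It had 0.372, 3.78 and 3.33 RPM in the first 3 hours and its highest level, 39.0 RPM, at 3-4 h. It then stood at 26.4, 29.0, 27.7, 16.5, 22.2, 20.9 and 20.1 RPM up to 10-11 h, at 11.9 and 12.3 RPM at 11-12 h and 12-13 h, and between 1.71 and 6.85 RPM later. It shared the step at 3-4 h with en, hh and gsb.

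Between 2-3 h and 3-4 h, the hours around cellularization and the start of gastrulation in D. melanogaster, 4 of the 8 tested members were at least 2 higher on the log2(RPM + 1) scale, en, hh, gsb and nkd. In all genes tested that share was 4.34%. As a ratio of 3-4 h over 2-3 h, en was 42.2 times higher (95% counting interval 25.0 to 77.5), hh 14.2 times (6.70 to 35.9), nkd 11.7 times (7.07 to 20.8) and gsb 10.3 times (5.43 to 21.9). The ratios of inv and ptc were 2.55 (1.24 to 5.77) and 2.45 (2.32 to 2.58), and that of smo was 1.36 (1.18 to 1.57). These ratios compare 2 samples and have no replicate check, and the hours were chosen after the values were seen.

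Between 9-10 h and 10-11 h the members parted. The level of en was 15.2 times lower at 10-11 h than at 9-10 h (counting interval 9.56 to 25.7), with 18 reads at 10-11 h and 1318 reads at 9-10 h. It was at least 2 lower on the log2(RPM + 1) scale, a drop that 27 of the 8249 genes tested had, or 0.327%. These hours were chosen after the values were seen, because en has its largest fall there, so this share describes the pair of samples and supports nothing. gsb-n had 0 reads at 10-11 h and 41 reads at 9-10 h, and was at least 2.20 times lower by the counting interval, but from 2.37 RPM it could not fall by 2 on this scale. inv was 1.62 times lower (1.35 to 1.94), smo 1.83 times (1.39 to 2.45) and gsb 1.73 times (1.07 to 2.96). hh and ptc were higher at 10-11 h, by ratios of 1.39 (1.05 to 1.81) and 1.27 (1.22 to 1.33), and the interval of nkd, with a ratio of 0.958, held 1 (0.733 to 1.24). The depth was 3589872 reads at 10-11 h and 17332320 reads at 9-10 h, and no other sample covers these hours.

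A smooth curve over the 22 hours (natural cubic spline with 4 degrees of freedom, limma on log2(RPM + 1), Benjamini-Hochberg adjusted p of at most 0.05) found change in all 8 members tested. Across all genes tested the share was 92.4%, so that this call by itself sets the members little apart. The fitted range from lowest to highest hour was 7.55 on the log2 scale for en, 5.83 for inv, 5.15 for ptc, 4.48 for hh, 4.32 for gsb, 4.25 for nkd, 2.61 for smo and 1.91 for gsb-n, where the median gene had 2.82. For en the curve at 0-1 h ran below the value of a sample without reads, so fitted ranges can exceed measured ones. Adjusted p-values ran from 2.38e-10 for ptc to 0.00185 for gsb-n by limma. The scatter around the curve was largest for en, with a residual SD of 1.12 against 0.559 for the median gene. The largest deviations of en were 1.82 at 0-1 h, -1.81 at 2-3 h, -1.55 at 11-12 h and 1.52 at 3-4 h, as sample minus curve.

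To ask when the members appear, 2-4 h was set against 0-2 h, with 2 samples in each window. Only 2 members were higher in 2-4 h by limma, where 2.40% of all genes tested were: en, by 3.49 ± 0.95 (log2, SE; adjusted p = 0.0232), and ptc, by 3.28 ± 0.87 (adjusted p = 0.0193). en had 2.92 and 123 RPM in 2-4 h, against 2.05 and 0.270 RPM in 0-2 h, and ptc had 359 and 879 RPM, against 32.8 and 98.0 RPM. The 2-4 h samples were above both 0-2 h samples for both genes, and also for inv, hh, gsb and smo, which did not pass. How many of all genes show this pattern was not counted. For en almost all of the difference stands on the 3-4 h sample, and without that sample its difference was 0.99 and its call was lost. Both calls were also lost without the 0-1 h sample (adjusted p = 0.0853 for en and 0.283 for ptc), that of en without 1-2 h (adjusted p = 0.201) and that of ptc without 3-4 h (adjusted p = 0.255). The differences of nkd (2.36, adjusted p = 0.0749), hh (2.27, adjusted p = 0.134), gsb (2.11, adjusted p = 0.130), inv (1.34, adjusted p = 0.332), smo (0.78, adjusted p = 0.526) and gsb-n (0.14, adjusted p = 1.00) did not pass. Without the 2-3 h sample, which leaves 1 sample in 2-4 h, the differences were 3.965 for nkd, 3.845 for hh and 3.543 for gsb. These 3 members passed there, but more of all genes were called there as well. With edgeR's quasi-likelihood test on the recovered reads hh (adjusted p = 0.0295) and nkd (adjusted p = 0.0329) passed too. By that test 3.12% of all genes tested were higher in 2-4 h.

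In 4-10 h, when the germ band of D. melanogaster embryos is extended and begins to retract, 7 of the 8 members were higher than in 0-2 h, against 10.9% of all genes tested. gsb-n, counted among these 7, reached 2 RPM only in samples of 4-10 h. The filter thus admitted it through the hours where it was high, and its call supports nothing. In 6 of the 7 (en, inv, hh, ptc, gsb and nkd) all 6 samples of 4-10 h lay above both samples of 0-2 h, a pattern seen in 16.7% of all genes tested. en averaged 115 ± 35.8 RPM in 4-10 h and 1.16 ± 1.26 RPM in 0-2 h (SD, n = 6 and n = 2), a change of 5.82 ± 0.78 on the log2 scale (limma, SE; adjusted p = 3.89e-06). inv averaged 46.6 ± 13.9 RPM in 4-10 h and 0.773 ± 0.435 RPM in 0-2 h, a change of 4.71 ± 0.58 (adjusted p = 1.37e-06). ptc averaged 813 ± 390 RPM in 4-10 h and 65.4 ± 46.1 RPM in 0-2 h, and changed by 3.64 ± 0.71 (adjusted p = 0.000392). These SDs hold the trend within a window as well as the error of a sample.

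The changes of hh (3.54, adjusted p = 0.000827), nkd (3.25, adjusted p = 0.000662), gsb (3.00, adjusted p = 0.00176) and gsb-n (1.50, adjusted p = 0.0106) passed limma too. gsb-n had 0 reads in both 0-2 h samples, where 3 reads would have been 0.279 and 0.810 RPM, and also 0 reads at 4-5 h, so its groups overlap and its log2 value depends on the pseudocount. The sizes for weak genes depend on the pseudocount and the test, and over the alternative settings they ran from 1.96 to 5.16 for hh, 1.72 to 4.06 for gsb and 2.05 to 3.90 for nkd. The calls of gsb, gsb-n and nkd were lost without the 0-1 h sample (adjusted p = 0.0873, 0.0971 and 0.0771), and that of gsb-n without 1-2 h (adjusted p = 0.0936). smo did not pass this comparison. It averaged 38.5 ± 8.64 RPM in 4-10 h and 42.4 ± 11.1 RPM in 0-2 h, with overlapping samples. Its difference was -0.14 ± 0.44 (adjusted p = 0.877), and its sign turned with DESeq2 size factors (0.08) and without the 0-1 h sample (0.12).

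**Figure D3:**
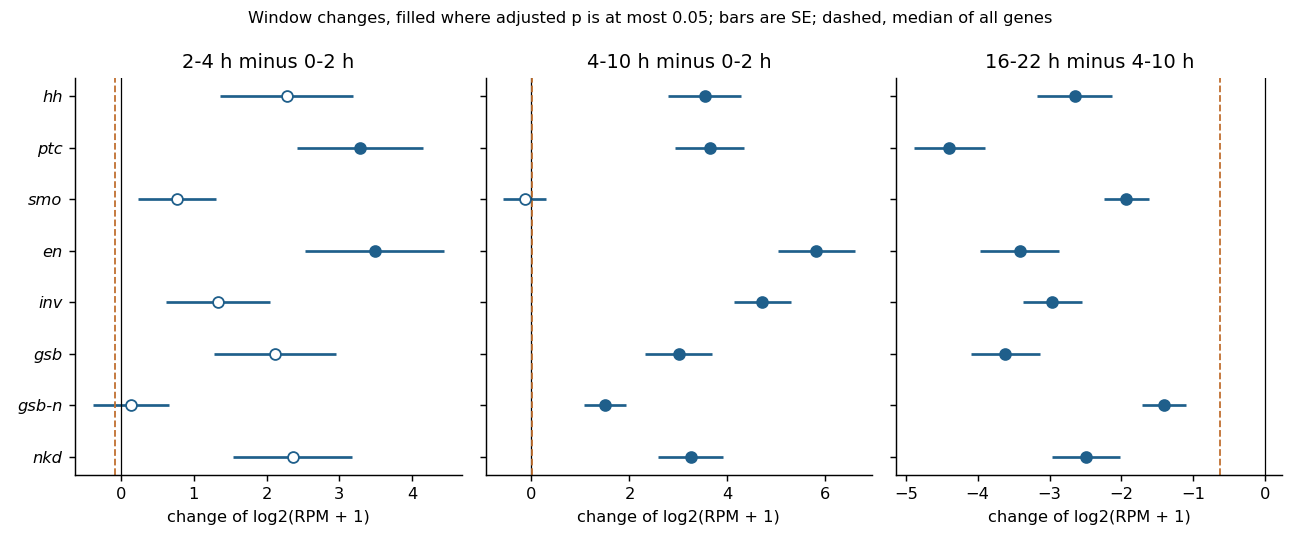
Change of log2(RPM + 1) (x axis) between windows for the 8 members tested, with bars of 1 SE from limma. Filled points passed at an adjusted p of 0.05, and the dashed line is the median of all genes tested. In the left panel en and ptc passed, in the middle panel all but smo, and in the right panel all 8, where the median gene stood at -0.62.

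In 16-22 h, when larval tissues differentiate, all 8 members tested were lower than in 4-10 h, as were 45.5% of all genes tested. gsb-n, counted here, had passed the filter of 2 RPM only through samples of 4-10 h, so its call supports nothing. The median change of all genes was itself -0.62 on the log2 scale by RPM, -0.14 with TMM and 0.18 with DESeq2 size factors, and changes are to be read relative to it. The share of all genes called lower was 34.2% with TMM and 24.7% with DESeq2 size factors, and all 8 members were called lower with each. Of the called genes, 64.9% were lower by RPM, 52.8% with TMM and 40.7% with DESeq2 size factors. In the early contrast of 2-4 h with 0-2 h, the share that was lower among called genes was 70.9%, 58.1% and 46.8%.

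The late change of ptc rests on the most reads. It averaged 35.8 ± 13.6 RPM in 16-22 h and 813 ± 390 RPM in 4-10 h (SD, n = 6 each), or -4.39 ± 0.50 on the log2 scale (limma, SE; adjusted p = 8.48e-08). gsb had a lowest, median and highest level of 0, 0.0983 and 1.37 RPM in 16-22 h, against 7.47, 14.5 and 30.3 RPM in 4-10 h, a change of -3.62 (adjusted p = 6.82e-07). With 3 late samples of gsb at 0 reads, the size of this change depends on the pseudocount and the test: it was -5.05 with a pseudocount of 0.25 RPM, -1.90 with 5 RPM and -5.78 by edgeR, so that gsb and ptc (-4.49 by edgeR) cannot be ranked. en had 4.62, 10.7 and 12.0 RPM in 16-22 h, against 72.1, 118 and 164 RPM in 4-10 h, a change of -3.41 (adjusted p = 7.80e-06). In all 3 genes the windows did not overlap, and en was still measured in every late sample whereas gsb was at 0 reads in 3 of them.

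inv had 2.57, 5.82 and 7.77 RPM in 16-22 h (lowest, median and highest), against 24.3, 47.8 and 63.5 RPM in 4-10 h, a change of -2.96 (adjusted p = 1.26e-06). hh had 0.685, 2.07 and 3.25 RPM in 16-22 h, against 9.02, 16.8 and 29.0 RPM in 4-10 h, a change of -2.65 (adjusted p = 9.58e-05). nkd had 1.71, 3.21 and 6.85 RPM in 16-22 h, against 16.5, 24.3 and 29.0 RPM in 4-10 h, a change of -2.50 (adjusted p = 5.66e-05). For smo, with 5.41, 9.34 and 13.0 RPM in 16-22 h against 29.1, 37.7 and 49.6 RPM in 4-10 h, the change was -1.93 (adjusted p = 7.25e-06). These 4 genes did not overlap between the windows either, which made 7 of the 8 members without overlap, a pattern seen in 34.1% of all genes tested. gsb-n fell as well (adjusted p = 0.000238), with 0 to 0.492 RPM in 16-22 h against 0 to 3.16 RPM in 4-10 h, so that its windows overlap at 0 reads. The sizes depend on the scaling. With TMM the changes were -3.81 for ptc, -3.38 for gsb, -2.86 for en, -2.43 for inv, -2.22 for hh, -1.99 for nkd, -1.37 for smo and -1.27 for gsb-n. With DESeq2 size factors they were -3.38 for ptc, -3.16 for gsb, -2.45 for en, -2.04 for inv, -1.88 for hh, -1.62 for nkd, -1.15 for gsb-n and -0.97 for smo.

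A gene that reached 10 RPM was classed as developmentally regulated when at least 60% of its summed level fell in 8 consecutive hours, and as housekeeping when its highest level was under 5 times its lowest. All 7 members that reached 10 RPM were regulated and none was housekeeping, where 53.5% of all genes reaching 10 RPM were regulated. The share in the best 8 hours was 89.7% for gsb, 88.7% for en, 79.6% for ptc, 79.3% for hh, 76.6% for inv, 74.8% for nkd and 66.9% for smo, against a median of 61.6% over all genes. The best 8 hours ran from 3 h to 11 h for gsb, en, ptc, hh and nkd, from 5 h to 13 h for inv, and from 0 h to 8 h for smo. With 70% required in place of 60%, smo was the member that dropped out.

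The hourly profiles of the members were compared by Pearson's r of log2(RPM + 1) over the 22 samples, given as a description, since all points share their libraries and depth. The most alike were gsb and nkd (r = 0.912), hh and nkd (r = 0.893), and hh and ptc (r = 0.875). Ranked among all 8248 other genes, gsb was 9th for nkd, nkd was 20th for hh and 23rd for gsb, and gsb was 55th for en. The ranks of the most similar member were 103 for ptc (hh), 145 for gsb-n (inv), 199 for inv (hh) and 1520 for smo (gsb). en and inv, in spite of their adjacency in D. melanogaster, had r = 0.612, and smo and inv had the lowest value of any pair, r = 0.122.

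**Figure D4:**
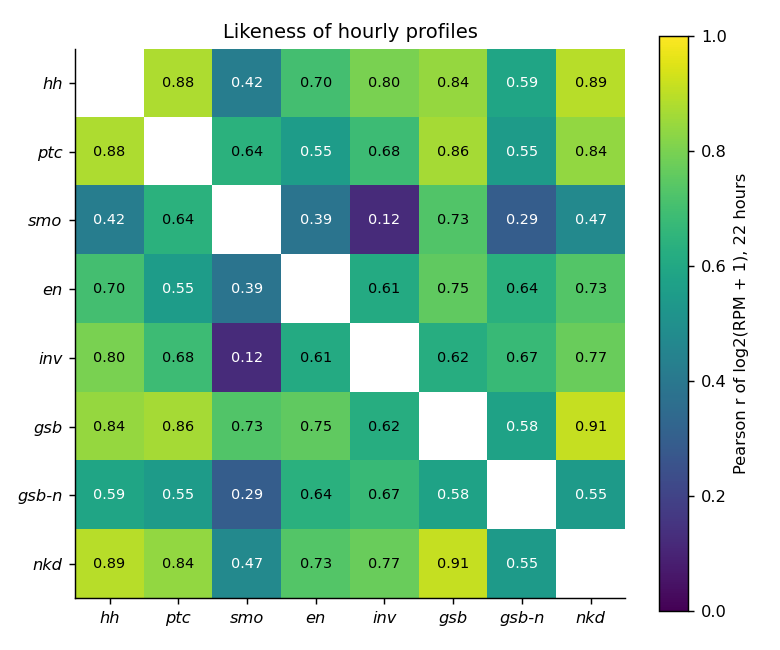
Pearson's r between the hourly profiles, log2(RPM + 1) over 22 samples, of the 8 members that reached 2 RPM (both axes list the genes). hh, ptc, gsb and nkd resemble one another most, from 0.84 to 0.91, and smo and inv least, at 0.12.

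Peaks of 5′ ends, called transcription start site clusters (TSCs), were taken as promoters. The TSC list carries D. simulans gene numbers, and members were matched to it by their read counts in the 22 samples. For en, hh, gsb, gsb-n and smo the counts equalled the summed TSCs of 1 gene in every sample. For ptc, nkd and inv the nearest entry differed by 0.269%, 3.34% and 7.27% of the reads, which was accepted after seeing that the second nearest differed by 35.2%, 17.9% and 22.8%. The link of inv is the least sure: it is an unassigned TSC of 124 bp on the unplaced chromosome U (U:13661637-13661760, + strand), which had more reads than the gene table in 18 hours and fewer in none. Positions refer to D. simulans genome release r1.4 from FlyBase, counted from 1, and exon or intron annotation of these positions was not used here.

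For en, whose main TSC was the narrowest main TSC of the linked members, all 6419 reads started in 1 TSC of 29 bp (2R:5937950-5937978, - strand). That of ptc was 93 bp wide (2R:3203059-3203151, + strand) and was assigned to no gene in the list. The main TSC of hh (3R:18778677-18778799, - strand, 123 bp) held 97.4% of its reads, and that of smo (2L:295802-295884, + strand, 83 bp) held 97.0%. gsb started mainly at a TSC of 39 bp (2R:19402158-19402196, + strand, 95.6% of its reads) and gsb-n at a TSC of 99 bp (2R:19392357-19392455, - strand). The outer 5′ ends of gsb and gsb-n lay 9703 bp apart on opposite strands, transcribed away from each other, and their levels had r = 0.576.

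Only nkd had several promoters of like strength, with 5 TSCs spread over 3L:18307075-18347844 on the - strand. Numbered in the direction of transcription, they held 23.5%, 2.73%, 28.4%, 33.6% and 11.7% of its linked reads. With the reads of a window pooled, so that deeper samples count for more, TSC 4 held 44.5% of 274 reads in 2-4 h (Wilson interval 38.8 to 50.4%), 31.9% of 1052 reads in 4-10 h (29.2 to 34.8%), 28.5% of 123 reads in 10-16 h (21.2 to 37.0%) and 26.1% of 69 reads in 16-22 h (17.2 to 37.5%). TSC 3 held 18.2% in 2-4 h (14.1 to 23.2%), 29.8% in 4-10 h (27.2 to 32.7%), 39.0% in 10-16 h (30.9 to 47.9%) and 24.6% in 16-22 h (16.0 to 36.0%). In 2-4 h, most of the reads were from the 3-4 h sample, which had 115 reads at TSC 4 and 48 at TSC 3. TSC 2 had no read in 2-4 h, which allows at most 1.38% by the Wilson interval, and held 12 of 69 reads in 16-22 h, or 17.4% (10.2 to 28.0%), 6 of them from the 18-19 h sample. These intervals cover counting error only and the shares were not tested across samples.

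**Figure D5:**
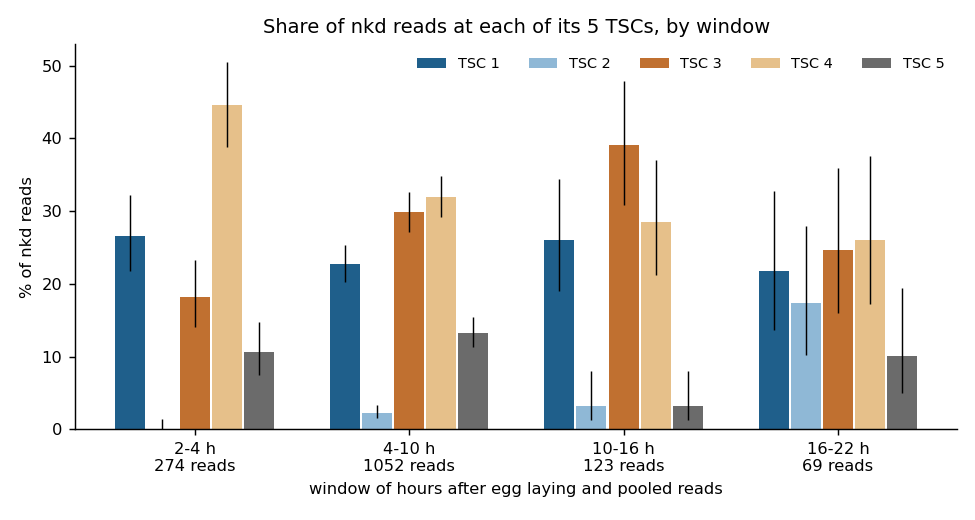
Percentage of nkd reads (y axis) at each of its 5 TSCs, numbered in the direction of transcription, with the reads of each window of hours (x axis) pooled and 95% Wilson intervals. TSC 4 has the highest share in 2-4 h (44.5%) and TSC 3 in 10-16 h (39.0%), and 69 reads stand behind 16-22 h.

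The smooth curve was also fitted to single TSCs, for which the filter of 2 RPM likewise admits a TSC through 1 read at 12-13 h. Of the 16 TSCs linked to members, the filter of 2 RPM removed 2, the second TSCs of hh and gsb. Of the remaining 14, 12 passed, against 82.1% of all TSCs tested. Those that did not were the second TSC of nkd (limma, adjusted p = 0.328) and the second TSC of smo (adjusted p = 0.0763), and the main TSC of every linked member passed. The third TSC of smo passed (adjusted p = 0.0175) with a fitted range of 1.41 on the log2 scale.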

How the data were processed

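Per the labels and the study's methods, all 22 samples were barcoded at reverse transcription, pooled into 1 library and sequenced on 1 lane. The authors mapped reads with STAR (version not given in the sources used here) to FlyBase r1.4, called TSCs on all hours together and deposited RPM per TSC and per gene. The gene table held 62.2 to 86.1% of each sample's RPM. A deposited score per gene (smoothed Z-scores) and the score per peak were not used. Dividing RPM by the value of 1 read gave whole reads for 100% of values (within 0.1 read). Wilson intervals and limits of 3 reads cover counting error only, and the values used here do not show whether duplicates were removed.

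Members and lists were chosen with earlier results of these data known. Members were those listed by number, and all were named. limma 3.58.1 (trend) was fitted to log2(RPM + 1) of the 8249 genes and 20118 TSCs reaching 2 RPM, which understates changes of weak genes; windows of 0-2, 2-4, 4-10, 10-16 and 16-22 h shared one fit. edgeR 4.0.16 on recovered reads called 7794 genes for smooth change. Class limits follow the study, which applied them to single TSCs of D. melanogaster. Here they were applied to gene levels of D. simulans, so the shares are not comparable with those of the study. Alternatives were other pseudocounts, filters, scalings, spline df and leaving out each hour. Fits were also run on simulated counts, drawn independently for each hour. Neighbouring hours are alike in the real data, so that run does not support the p-values. Symbols are those of D. melanogaster. Promoter motifs, the pathway list and the ratio of wg to hh were planned but not run here, as was any sequence.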

Additional observations from a re-analysis of the deposited data

How the results depend on the processing

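No paired analysis was possible because each hour has 1 sample. Of 693 alternative values for the window changes of the 8 members, 677 kept their direction and side of the threshold, all of the late decreases included; gsb-n has no value under a filter of 10 RPM. The exceptions, given with the results, were in the early contrasts. The sign of smo between 4-10 h and 0-2 h turned with DESeq2 size factors (0.0801) and ran from -0.41 to 0.12 with each hour left out. Where a window kept 1 sample, that sample is assumed to vary like the others. Over all genes, 680 were called between 2-4 h and 0-2 h, and 108 to 1024 with each hour left out (108 without 0-1 h, 374 without 1-2 h, 1024 without 2-3 h, 260 without 3-4 h), and 2070 between 4-10 h and 0-2 h, against 985 to 2215 (985 without 0-1 h, 1104 without 1-2 h). Of 16524 TSCs with smooth change, 10748 were left with a filter of 10 RPM, where fewer were tested. The 3784 regulated genes became 2452 at a 70% limit, and the 599 housekeeping genes became 919 with TMM and 1157 with DESeq2 size factors, whose cause was not tested. Depth limits ci, gsb-n and every value at 12-13 h.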
